A study of Mus musculus with 16 samples.

Results

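Effector CD8 T cells were compared with memory CD8 T cells sorted from the same kind of leukaemic mouse, a chimera whose bone marrow came from Il4i1 knockout (KO) donors. The 8 arrays of this comparison, 4 of effector cells (effector KO) and 4 of memory cells (memory KO), were chosen by their sample titles out of 16 in the series. The remaining 8 hold the same subsets from chimeras with wild-type (WT) bone marrow and are used here for the spread between arrays and for values side by side. Every chimera, KO or WT, was female, of the strain given as C56BL/6, and had been transplanted with leukaemia cells from Eµ-TCL1 mice, a model of chronic lymphocytic leukaemia (CLL). CD8 T cells were taken from the spleen 5 weeks after the transplantation. Memory cells were gated as CD44high and CD127high, and effector cells as CD44+ and CD127-, although a protocol label writes effector and knockout for the sorted cells. In the Eµ-TCL1 model the transgene TCL1 is driven in B cells by an immunoglobulin enhancer, and the Il4i1 genotype of the transplanted leukaemia is not stated in the labels. The knockout marks the donor marrow, so cells that a host retained need not carry it. The labels give neither the age of the mice nor whether the 4 samples of a group came from separate animals. The p-values rest on the spread between samples within groups, pooled per gene over all 16 arrays, KO and WT. They do not rest on the spread of the KO samples alone.

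Il4i1 encodes interleukin-4-induced gene 1, a secreted enzyme of antigen-presenting cells that oxidises phenylalanine, tryptophan and other amino acids. It is known for restraining T cells, and its tryptophan products can act as ligands of the aryl hydrocarbon receptor (AHR). CD127 is the interleukin-7 receptor chain that memory and naive T cells keep and effector cells lose. Effector CD8 T cells are known for granzymes, interferon-gamma and chemokines. After long exposure to antigen, as in a tumour, they also carry inhibitory receptors and the transcription factors of exhaustion. Memory cells are known for interleukin-7-dependent survival, for receptors that lead into lymph nodes, and for transcription factors such as LEF1 that they share with naive cells.

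Values are log2 expression as deposited, with 1 value per gene and array for 22180 genes, and a difference of 1 is 2-fold. The array medians were 4.12 to 4.22. No measure of background was used here. Where a group's mean lay under the array medians, the difference is therefore given on the log2 scale and not as a fold. A gene was called when the adjusted p from limma, two-sided and adjusted over all genes by the Benjamini-Hochberg method, was under 0.05. The sort genes served as a check of the labels and are no finding. Il7r, which encodes CD127, read 6.60, 5.43, 5.0 and 5.75 on the effector KO arrays and 11.06, 11.07, 10.94 and 11.27 on the memory KO arrays, in the direction of the gate on every array. Cd44 read 5.46 to 6.08 in effector and 6.70 to 6.80 in memory cells. The CD8 chain Cd8b1 lay between 11.23 and 11.76 in effector and between 11.70 and 11.86 in memory cells, and Cd3e between 11.64 and 11.90 and between 11.48 and 11.80, so both subsets carried T cell markers at high level. Cd4 lay between 3.96 and 4.58 on the 8 arrays. The genotype itself could not be checked, because the only probe set for Il4i1 also covers Nup62 and Il4i1b (mean 5.90 ± 0.11 in effector KO, 5.67 ± 0.14 in memory KO, 5.95 ± 0.06 in effector WT and 5.99 ± 0.06 in memory WT, SD, n = 4).

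The arrays of a group were not equally alike. Array 4 of effector KO stood apart from all others, with correlations to the other 15 arrays of 0.965 to 0.974 against 0.971 to 0.994 among these, and the median SD of a gene within effector KO was 0.209 with it and 0.155 without it. Memory KO arrays 1 and 4 differed together from arrays 2 and 3 in several of the groups of genes described below. List counts are therefore also given without single arrays.

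In KO chimeras 696 genes were higher and 953 lower in effector than in memory cells, which is 3.14% and 4.3% of the genes tested and 1649 genes (7.43%) in all. At least 2-fold differences were found for 158 higher genes (0.712%) and 239 lower genes (1.08%). The 4 arrays of each subset did not overlap for 901 genes higher (4.06%) and 1352 lower (6.1%) in effector cells. Fewer cells with a transcript and less of it per cell cannot be told apart in such bulk samples. Genes higher in effector cells included members of the lists of inhibitory receptors, exhaustion factors, cytokines, granule genes and cell division. Genes lower there included cytokine receptors, homing genes, interferon response genes and factors of the stem-like state. Without array 4 of effector KO the counts were 992 and 1052, and without array 4 of memory KO they were 358 and 603. Fitted without the WT arrays, which changes both the residual degrees of freedom and the estimate of spread, the 8 arrays called 183 and 417. In the lists of inhibitory receptors, exhaustion factors and cytotoxic granule genes that fit called 3 higher genes each. The median SD of a gene was 0.209 in effector KO and 0.172 in memory KO, against 0.1325 in effector WT and 0.160 in memory WT. What lowered the counts was not tested. The shares in the lists described below are read against the 3.14% and 4.3% of all genes, and the plot of called genes by list shows them together.

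**Figure D1:**
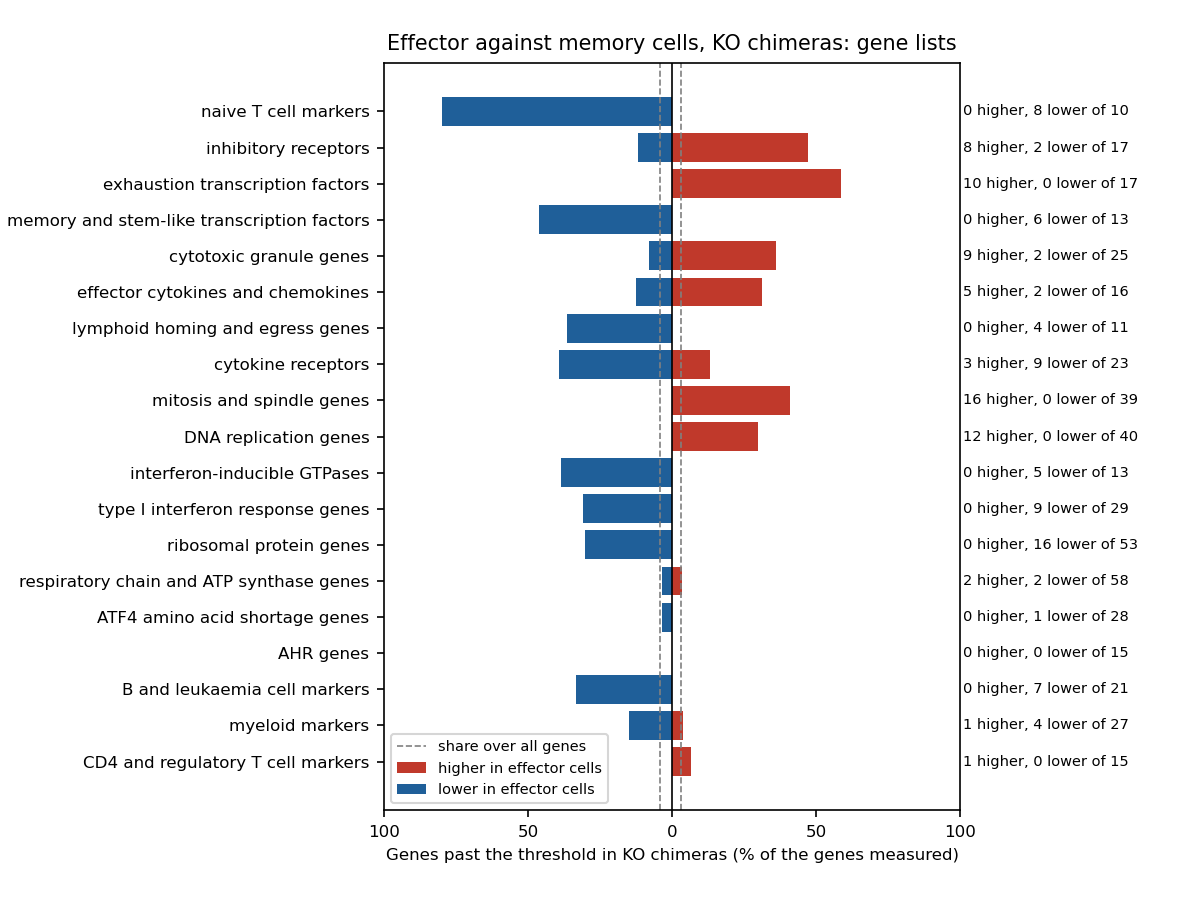
Share of the measured genes of 19 lists that passed the threshold in effector against memory cells of KO chimeras (x axis, percent; red bars to the right are higher and blue bars to the left lower in effector cells; counts stand at the right). Dashed lines mark the shares over all genes, 3.14% and 4.3%; inhibitory receptors and exhaustion transcription factors extend mostly to the right, naive T cell markers, homing genes and interferon lists to the left, and the AHR list has no bar.

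Of the 15 largest rises whose arrays did not overlap, 3 were predicted or RIKEN genes, 6 were genes of the inhibitory, exhaustion or cytokine lists, led by Maf, and 6 lay outside the lists of T cell function. Ociad2, which encodes a protein of mitochondria and endosomes, read 8.92, 9.24, 8.69 and 8.56 in effector and 5.41, 7.40, 7.68 and 5.05 in memory cells, 5.54-fold higher (log2 difference 2.47 ± 0.48, SE; adjusted p = 0.00449). All 4 effector arrays lay above all 4 memory arrays, and memory arrays 1 and 4 lay far below memory arrays 2 and 3. Med7, a subunit of the Mediator complex of transcription, was 4.79-fold higher (adjusted p = 0.000697). The giant muscle protein gene Neb read 6.68 to 7.44 in effector and 4.59 to 5.52 in memory cells, 4.06-fold higher with an adjusted p of 1.96e-05. The integrin chain Itgad (3.73-fold, adjusted p = 0.000261), the gap junction gene Gjb2 (3.49-fold, 0.00248) and the insulin receptor relative Insrr (log2 difference 1.72, 0.00231; memory mean under the array medians) were the other 3.

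Among the largest falls, Trim30c, of the TRIM family of ubiquitin ligases, read 3.44, 3.37, 2.93 and 3.02 in effector and 7.23, 5.78, 6.04 and 7.76 in memory cells. All effector values lay under the array medians, and the log2 difference was -3.51 ± 0.36 (SE; adjusted p = 2.87e-05). Effector means under the array medians were also found for Slc16a5, a monocarboxylate transporter (log2 difference -2.70, adjusted p = 1.96e-05), and Tlr7, a sensor of single-stranded RNA (log2 difference -2.43, adjusted p = 0.00042). The sialyltransferase gene St6gal1 was 5.8-fold lower (adjusted p = 2.94e-05). Each of these 4 genes read higher on every memory KO array than on any effector KO array.

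Inhibitory receptors were called more often higher than lower in effector cells. Of 17 genes measured in this list, 8 were higher and 2 lower, with a median log2 difference of 1.09 against 0.01 over all genes. The list includes the ectoenzyme genes Entpd1, which was higher, and Nt5e, which was lower. Lag3, a receptor for MHC class II that restrains T cells, read 9.63, 9.94, 9.63 and 9.52 on the effector arrays and 7.10, 8.09, 8.37 and 7.06 on the memory arrays. The effector arrays were close together and the memory arrays fell into a lower pair, 1 and 4, and a higher pair, 2 and 3, all below the effector cells. Lag3 was 4.07-fold higher (log2 difference 2.03 ± 0.28, SE; adjusted p = 0.00037).

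Havcr2 encodes TIM-3, a marker of terminal exhaustion. It read 9.07, 9.56, 9.46 and 7.59 in effector and 5.50, 7.15, 7.54 and 6.37 in memory cells and was 4.86-fold higher (adjusted p = 0.00266); effector array 4 lay only just above the highest memory array. Tigit, which competes with CD226 for ligands on other cells, was 3.09-fold higher (adjusted p = 0.00543), and Ctla4, which competes with CD28, 2.2-fold higher (adjusted p = 0.00617). Entpd1 encodes CD39, an ectoenzyme that degrades ATP, and was 3.08-fold higher (adjusted p = 0.00106). Cd200r1 and Cd101, further inhibitory surface receptors, were 2.91-fold and 2.12-fold higher (adjusted p = 0.00782 and 0.00946). The memory mean of Cd200r1, 4.23, lay close to the array medians, and memory arrays 1 and 4 read under them (4.07 and 4.08). With the 8 arrays alone the calls of Tigit, Ctla4, Cd200r1 and Cd101 were lost (adjusted p = 0.0724, 0.0709, 0.0856 and 0.0891).

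Pdcd1 encodes PD-1, the receptor blocked in checkpoint therapy. It read 9.39, 10.46, 9.80 and 9.22 in effector and 7.12, 9.25, 8.65 and 6.99 in memory cells, 3.28-fold higher (adjusted p = 0.0144). Here the groups overlapped, since memory array 2 exceeded effector array 4. The Pdcd1 call was lost without array 4 of memory KO (adjusted p = 0.0555) and with the 8 arrays alone (adjusted p = 0.115). The 2 genes of the list that were lower were Btla and Nt5e. Btla, common on resting lymphocytes, was 1.91-fold lower (adjusted p = 0.0029). Nt5e encodes CD73, an enzyme that follows CD39 in making adenosine. Nt5e read 6.77, 5.21, 4.79 and 7.52 in effector and 8.73, 8.41, 8.18 and 8.34 in memory cells, 5.08-fold lower (adjusted p = 0.00262), opposite to Entpd1.

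Of 17 transcription factors of exhaustion 10 were higher and 0 lower, and 16 had a positive difference (median 0.71). Without array 4 of memory KO 6 were higher, and without array 2 of effector KO 1 was lower. Maf, a factor of interleukin-10-producing and exhausted T cells, read 8.71, 7.14, 7.81 and 9.09 in effector and 5.98, 4.62, 6.60 and 5.23 in memory cells. Both groups spread over about 2 units without overlap, and Maf was 5.97-fold higher (log2 difference 2.58 ± 0.40, SE; adjusted p = 0.000876). Prdm1 encodes BLIMP-1, which drives terminal differentiation, and read 9.07, 9.02, 8.93 and 8.61 in effector against 7.23, 7.74, 7.85 and 6.82 in memory cells. It was 2.82-fold higher with an adjusted p of 0.000278.

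Tox, the factor known to establish the exhausted state, was 1.82-fold higher, from 8.43 to 9.10 in memory and from 9.37 to 10.03 in effector cells (adjusted p = 0.00479). The T-box factor Eomes rose less but evenly, 1.46-fold (adjusted p = 0.00204), and Bhlhe40, a factor of activated T cells, 1.96-fold (adjusted p = 0.00861). Nr4a2, an orphan nuclear receptor induced through the T cell receptor, was 3.15-fold higher (adjusted p = 0.0332). The AP-1 partner Batf was 1.64-fold higher (adjusted p = 0.0203). These last 2 calls were not stable, as Nr4a2 missed the threshold in 5 and Batf in 2 of the 16 fits that each left out 1 array (adjusted p up to 0.119 and 0.0607). With the 8 arrays alone Tox, Bhlhe40, Nr4a2 and Batf all missed it (adjusted p = 0.0564, 0.0772, 0.155 and 0.127).

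Transcription factors of the stem-like state that passed were all lower in effector cells. Of 13 such factors measured, 0 were higher and 6 lower, all 6 without overlap, as were 1314 of all 1649 called genes. Over the list 9 differences were negative and 4 positive, with a median of -0.36. In WT chimeras 6 of the list were lower. Lef1, a partner of TCF1 in naive and memory T cells, read 8.55, 8.50, 8.90 and 8.98 in effector and 10.04, 9.89, 9.93 and 10.08 in memory cells, 2.38-fold lower (log2 difference -1.25 ± 0.13, SE; adjusted p = 2.94e-05). Bach2, a repressor that holds back effector differentiation, read 4.84, 5.70, 5.49 and 5.54 and 7.62, 7.16, 6.72 and 7.18 and was 3.43-fold lower (adjusted p = 0.000268). Id3, an inhibitor of E proteins linked to memory precursors, was 2.3-fold lower (adjusted p = 0.0012), the chromatin organiser Satb1 2.9-fold (adjusted p = 0.0026) and the quiescence factor Foxp1 2.19-fold (adjusted p = 0.000183). Foxo1, which sustains Il7r and Klf2, fell least, 1.28-fold (adjusted p = 0.0323), and its call was lost in 4 of the 16 fits without 1 array (adjusted p up to 0.0941). With the mean of its probe sets in place of the brightest the Foxo1 difference was -0.17 (adjusted p = 0.343), and with arrays centred on their median its adjusted p was 0.0624. Klf2 itself, which controls egress genes, read 6.95, 6.37, 6.65 and 7.87 in effector and 7.98, 7.60, 7.58 and 7.94 in memory cells and missed the threshold (adjusted p = 0.0507); effector array 4 lay among the memory arrays.

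Factors of effector fate did not move as 1 group, with 2 of 10 higher (Prdm1 and Eomes, named above) and 4 lower. Tbx21 encodes T-bet, which drives short-lived effector cells and is known to give way to EOMES in exhaustion. It read 7.94, 7.07, 6.97 and 8.76 in effector and 8.97, 8.68, 8.37 and 9.11 in memory cells, 2.14-fold lower (adjusted p = 0.027). Effector arrays 1 and 4 were the higher ones, array 4 overlapped the memory cells, and the call was lost in 4 of the 16 fits without 1 array (adjusted p up to 0.0914). Stat4, which carries the interleukin-12 signal, was 1.45-fold lower (adjusted p = 0.00378) without overlap. Without array 4 of memory KO 1 of the 4 falls was called, and without effector KO array 1, 2 or 3 it was 2 each.

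**Figure D2:**
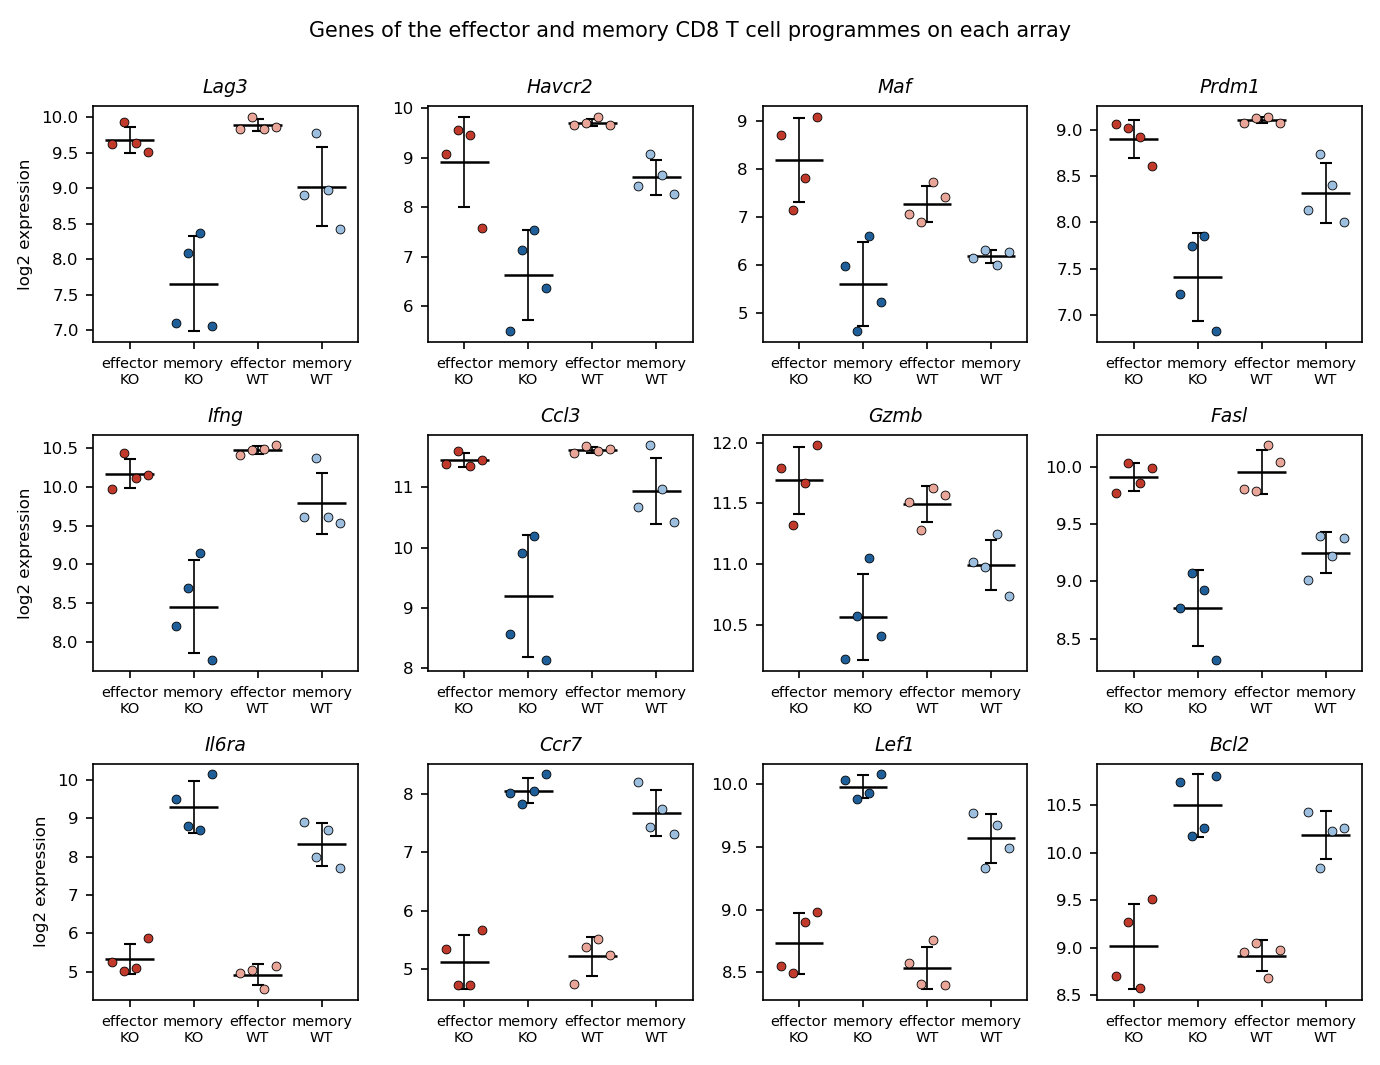
Log2 expression of 12 genes on each of the 16 arrays (points; replicates 1 to 4 from left to right in each group), with the group mean (line) and SD (bar, n = 4). In KO chimeras the 4 effector arrays lay above the 4 memory arrays for Lag3, Havcr2, Maf, Prdm1, Ifng, Ccl3, Gzmb and Fasl and below them for Il6ra, Ccr7, Lef1 and Bcl2.

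Effector cytokines and chemokines were higher for 5 of 16 genes and lower for 2. Ifng, which encodes interferon-gamma, read 9.98, 10.44, 10.12 and 10.16 in effector and 8.20, 8.70, 9.15 and 7.76 in memory cells. All effector arrays lay above the memory arrays, of which array 3 was highest and array 4 lowest, and Ifng was 3.3-fold higher (log2 difference 1.72 ± 0.24, SE; adjusted p = 0.000354). Ccl3, an inflammatory chemokine, was even in effector cells (11.35 to 11.61) and spread widely in memory cells (8.56, 9.92, 10.19 and 8.13), 4.75-fold higher (adjusted p = 0.00106). Its neighbour and relative Ccl4 read 9.08, 9.07, 8.93 and 9.04 and 7.28, 7.75, 7.72 and 7.45 and was 2.79-fold higher, with the smaller adjusted p of 9.99e-06.

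Il10, an anti-inflammatory cytokine, read 6.99, 6.43, 6.87 and 5.68 in effector and 4.36, 4.55, 5.49 and 4.53 in memory cells, 3.39-fold higher (adjusted p = 0.00284). Csf1, the growth factor of macrophages, was 3.66-fold higher (adjusted p = 0.00504), with effector array 4 below memory array 2. Ltb, which encodes the lymphotoxin chain that shapes lymphoid tissue, ran the other way, 1.68-fold lower (adjusted p = 0.000328) without overlap. Tnf read 6.43, 5.42, 5.61 and 5.10 in effector and 6.64, 6.47, 6.16 and 6.60 in memory cells and was lower by the threshold (adjusted p = 0.0402), a call lost in 10 of the 16 fits without 1 array (adjusted p up to 0.11). The count of lower genes was 1 without effector KO array 3 or 4, memory KO array 2 or 4, effector WT array 1, 3 or 4, or memory WT array 3.

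Of 25 cytotoxic granule genes measured 9 were higher and 2 lower, with a median difference of 0.31. Gzmb, the granzyme that activates caspases, read 11.79, 11.32, 11.67 and 11.98 in effector and 10.22, 10.57, 11.05 and 10.41 in memory cells and was 2.18-fold higher (adjusted p = 0.000697), without overlap. Fasl, the ligand of the death receptor FAS, read 9.77, 10.03, 9.86 and 9.99 and 8.77, 9.07, 8.92 and 8.31, 2.21-fold higher (adjusted p = 0.000243). Unc13d, needed to release granules, rose 1.48-fold (adjusted p = 0.00116). Perforin, encoded by Prf1, read 10.68 to 11.17 in effector and 10.07 to 10.72 in memory cells and missed the threshold (adjusted p = 0.0735).

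Gzmm, a granzyme of resting and innate-like killers, read 7.03, 5.96, 5.75 and 8.05 in effector and 8.54, 8.14, 8.09 and 9.21 in memory cells, 3.48-fold lower (adjusted p = 0.00735). The lysosomal protein gene Lamp1, whose product appears on the surface of degranulating cells, was 1.93-fold lower (adjusted p = 0.000109). A further pair of calls of the list was at the edge, Gzmk (1.37-fold higher, adjusted p = 0.0413) and Nkg7 (1.18-fold higher, 0.0438), which were lost in 11 and 16 of the 16 fits without 1 array. The count of higher genes fell to 4 without effector KO array 3 or memory KO array 1 and to 5 without effector KO array 1 or memory KO array 4. Among 15 killer lectin-like receptors, which are shared with NK cells, 1 was higher and 2 were lower. Klrg1, a marker of terminal effector cells, was 1.92-fold higher (adjusted p = 0.0464), a call lost in 11 of the 16 fits without 1 array. Klra6 (log2 difference -2.52, adjusted p = 0.0018) and Klrb1c (-1.89, adjusted p = 0.00974) were lower, with effector means under the array medians.

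Genes of lymph node homing and egress were lower in effector cells, 4 of 11 with 0 higher. Ccr7, the receptor that leads T cells into lymph nodes, read 5.34, 4.73, 4.72 and 5.66 in effector and 8.01, 7.82, 8.06 and 8.34 in memory cells. The nearest values of the groups were more than 2 units apart, and Ccr7 was 7.69-fold lower (log2 difference -2.94 ± 0.23, SE; adjusted p = 3.35e-06). S1pr1, the receptor for egress into blood, read 8.73, 8.45, 8.37 and 9.43 and 10.26, 10.16, 9.84 and 10.30, 2.63-fold lower (adjusted p = 0.000803). Gpr183, an oxysterol receptor that positions lymphocytes, was 2.81-fold lower (adjusted p = 0.000237).

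Of the 17 integrins of the list, which does not hold the higher Itgad named above, 5 were lower and 0 higher. Itgb1, the common beta-1 chain, fell 2.63-fold (adjusted p = 9.02e-05), Itgae, the CD103 chain that binds E-cadherin, 2.52-fold (adjusted p = 0.000634) and the laminin receptor chain Itga6 1.8-fold (adjusted p = 0.00523). Itgb7, the partner chain of gut homing, was 1.47-fold lower (adjusted p = 0.0293), a call lost in 5 of the 16 fits without 1 array. The count of lower integrins fell to 3 without effector KO array 1 or 3 or memory KO array 4, and 2 were higher without effector KO array 4. Of 12 resident memory genes 3 were lower and 1 higher, with 9 negative differences and a median of -0.60. The lower ones were Itgae, the collagen receptor chain Itga1 (2.17-fold, adjusted p = 0.0187) and the E-cadherin gene Cdh1 (1.84-fold, adjusted p = 0.0272), and the higher one was Rgs1, a brake on chemokine signals (2.05-fold, adjusted p = 0.00156). The count of 3 was 1 without effector KO array 3 or memory KO array 4 and 5 without effector KO array 4 or memory WT array 4, and the count of 1 was 2 without effector KO array 4. The chemokine receptor Cxcr6 of tissue T cells read 10.02 to 11.11 in effector and 9.48 to 10.31 in memory cells and missed the threshold (adjusted p = 0.129). Of 14 inflammatory chemokine receptors 1 was lower and 0 higher. That one was Cxcr3 (1.47-fold lower, adjusted p = 0.0239; lost in 2 of the 16 fits). The lower count was 0 without memory KO array 4 and 2 without effector KO array 4, memory KO array 1 or memory WT array 3 or 4, and the higher count was 2 without effector KO array 4 and 1 without memory KO array 1.

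Cytokine receptors apart from the sort gene were lower for 9 and higher for 3 of 23. Il6ra, the specific chain of the interleukin-6 receptor, read 5.26, 5.02, 5.10 and 5.88 in effector and 9.50, 8.80, 8.70 and 10.14 in memory cells. It showed the largest fall after Il7r among genes without overlap, 15.7-fold (log2 difference -3.97 ± 0.31, SE; adjusted p = 3.35e-06). Il4ra, the shared chain of the interleukin-4 and interleukin-13 receptors, read 8.11, 8.16, 8.31 and 7.64 and 9.84, 9.63, 9.37 and 9.78 and was 3.03-fold lower (adjusted p = 1.96e-05). Il18r1, the interleukin-18 receptor, fell 2.8-fold (adjusted p = 0.00644), and Ifngr2, the signalling chain for interferon-gamma, 2.18-fold (adjusted p = 0.00133).

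The chains of the interleukin-12 receptor moved apart. Il12rb1 read 8.29, 8.41, 8.60 and 8.42 in effector and 7.55, 7.27, 7.27 and 7.28 in memory cells, 2.12-fold higher (adjusted p = 0.000115). Il12rb2, the chain that binds STAT4, read 3.76, 3.89, 3.71 and 3.32 and 6.15, 6.29, 6.25 and 5.45, lower by a log2 difference of -2.37 (adjusted p = 2.94e-05), with all effector values under the array medians. Downstream, Socs1, an inhibitor of JAK kinases, was 1.82-fold lower (adjusted p = 0.000307); 3 of 18 STAT and SOCS genes were lower and 0 higher, with 1 higher without effector KO array 1, memory KO array 1 or memory WT array 2.

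Genes of survival and costimulation divided the subsets too. Bcl2, the survival factor that interleukin-7 sustains, read 8.70, 9.27, 8.57 and 9.51 in effector and 10.75, 10.18, 10.26 and 10.81 in memory cells. Effector arrays 2 and 4 were the higher ones, none reached the memory cells, and Bcl2 was 2.8-fold lower (log2 difference -1.49 ± 0.20, SE; adjusted p = 0.000338). Bcl2l1, which encodes BCL-XL, was 1.65-fold lower (adjusted p = 0.000665). Bcl2a1a, a survival gene induced by activation with near-identical copies in its family, so that the probe set may not tell them apart, was 1.63-fold higher (adjusted p = 0.00507).

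Tnfsf8, the ligand of CD30, read 3.87, 4.44, 3.87 and 4.77 and 7.39, 5.94, 6.80 and 7.39, 6.25-fold lower (adjusted p = 4.85e-05), and Tnfrsf26, a receptor of the TNF receptor family, was 5.88-fold lower (adjusted p = 2.66e-05). Cd27, the receptor of CD70, was 1.54-fold higher (adjusted p = 0.000449) and Cd7 1.44-fold higher (adjusted p = 0.00791). Cd226, the activating rival of TIGIT, was 2.84-fold lower (adjusted p = 0.0143), while Tigit was higher; the Cd226 call was lost without array 4 of memory KO (adjusted p = 0.0555). In the list as a whole 3 of 23 genes were higher and 5 lower. Without effector KO array 2 or memory KO array 3 or 4 the lower count was 3.

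Genes of T cell receptor signalling were higher for 5 of 19 and lower for 2. Zap70, the kinase that binds the activated receptor, was 1.55-fold higher (adjusted p = 0.000332). Ptpn6 encodes SHP-1, a phosphatase that dampens the signal, and was 1.92-fold lower (adjusted p = 0.00154); the TEC kinase gene Txk was 1.71-fold lower (adjusted p = 0.00231). The count of higher genes was 3 without array 4 of memory KO. Immediate early genes gave 3 higher and 3 lower of 24. Egr1, induced through the T cell receptor, was 1.95-fold higher (adjusted p = 0.0103) and Egr2 2.2-fold higher (adjusted p = 0.0149; 0.0506 without array 1 of effector KO). Myc, the driver of growth, ran against the division genes below, 2.1-fold lower, from 8.89, 8.24, 8.57 and 9.07 in memory to 7.96, 8.09, 7.31 and 7.14 in effector cells (adjusted p = 0.00556). Both counts of immediate early genes fell to 1 without single arrays, the higher one without effector KO array 1 and the lower one without effector KO array 3 or memory KO array 1 or 4, and without effector KO array 4 5 were higher. Tnip3, an inhibitor of NF-kB induced by inflammation, was the 1 of 16 NF-kB genes past the threshold (2.87-fold higher, adjusted p = 0.000565). Without effector KO array 4 the list had 4 higher genes, and without memory WT array 2 it had 2.

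Cell division genes that passed were all higher in effector cells, but the memory KO arrays spread over a wider range than the gap between the group means. Of 39 mitosis and spindle genes 16 were higher and 0 lower, all 39 differences were positive, and their median was 0.91. Of 40 DNA replication genes 12 were higher and 0 lower, with 37 positive differences and a median of 0.48. The mean level of the mitosis list was 7.86, 7.67, 8.03 and 7.10 on the effector KO arrays and 6.19, 7.07, 7.63 and 6.09 on the memory KO arrays. Memory array 3 reached the effector range, array 2 lay between, and arrays 1 and 4 were lowest, while effector array 4 was the lowest of its group.

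Mki67, the proliferation marker Ki-67, read 10.18, 9.89, 10.39 and 10.26 in effector and 8.62, 9.35, 9.92 and 8.56 in memory cells, 2.09-fold higher (log2 difference 1.06 ± 0.23, SE; adjusted p = 0.00818), with memory array 3 above effector array 2. Hmmr, a spindle protein, read 6.89, 6.63, 6.82 and 6.64 and 4.46, 5.75, 6.39 and 4.95, 2.56-fold higher (adjusted p = 0.00631), and Cenpa, the histone of centromeres, was 2.14-fold higher (adjusted p = 0.00617), both without overlap. The kinetochore gene Ndc80 was 1.86-fold higher (adjusted p = 0.00866). In the replication list Rfc3, a subunit of the clamp loader, was 1.63-fold higher (adjusted p = 0.00461), and the repressor E2f7 1.97-fold (adjusted p = 0.00617). The mitotic kinase gene Cdk1 was 2.28-fold higher (adjusted p = 0.0348) and the nucleotide enzyme gene Rrm2 1.78-fold (adjusted p = 0.0407), calls lost in 5 and 13 of the 16 fits without 1 array.

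The counts of division genes depended strongly on single arrays. The 16 mitosis genes became 31 without array 4 of effector KO and 33 without array 3 of memory KO. They became 5 without effector KO array 3, memory KO array 1 or memory KO array 4, 6 without effector KO array 1 and 10 without effector KO array 2. The 12 replication genes became 20 and 23 without effector KO array 4 and memory KO array 3, and 3 without memory KO array 4, 4 without effector KO array 1, 5 without effector KO array 3 or memory KO array 1 and 7 without effector KO array 2. With the 8 arrays fitted alone, 0 genes of either list passed, and with array weights 30 mitosis genes did. A block for genotype and replicate number gave 35 mitosis and 17 replication genes.

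Division genes are known to carry E2F sites, which act in DNA replication, or a cell cycle homology region (CHR), which acts in mitosis, near their start. Promoter windows of 300 bases, from 250 before to 50 after the start, came from RefSeq on GRCm38.p6. Motifs were searched on both strands as TTTCCCGC, TTTGGCGC, TTTCGCGC or TTTGCCGC for E2F and as TTTGAA for the CHR. An E2F match was found in 16 of 35 replication genes with a window (45.7%), in 2 of 34 mitosis genes (5.88%) and in 2.6% of all 27025 genes with a window. A CHR match was found in 23 of 34 mitosis genes (67.6%), in 5 of 35 replication genes (14.3%) and in 20.2% of all genes. The windows of Hmmr, Cenpa and Rfc3, the called genes with the smallest p that held a match of their list's motif, show each motif in capitals.
Hmmr, chr11:40733388-40733687, minus strand, CHR: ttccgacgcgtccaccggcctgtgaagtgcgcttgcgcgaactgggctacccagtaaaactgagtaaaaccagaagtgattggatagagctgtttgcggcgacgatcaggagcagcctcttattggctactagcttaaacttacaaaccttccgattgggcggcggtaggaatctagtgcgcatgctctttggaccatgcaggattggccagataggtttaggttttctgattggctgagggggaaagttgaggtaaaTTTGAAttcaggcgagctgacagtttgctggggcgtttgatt
Cenpa, chr5:30666636-30666935, plus strand, CHR: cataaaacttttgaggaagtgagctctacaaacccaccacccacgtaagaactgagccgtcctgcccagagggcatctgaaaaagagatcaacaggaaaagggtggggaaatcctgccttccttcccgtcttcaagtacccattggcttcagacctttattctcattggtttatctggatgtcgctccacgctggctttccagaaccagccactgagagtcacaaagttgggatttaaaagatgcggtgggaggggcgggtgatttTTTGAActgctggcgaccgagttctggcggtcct
Rfc3, chr5:151651159-151651458, minus strand, E2F: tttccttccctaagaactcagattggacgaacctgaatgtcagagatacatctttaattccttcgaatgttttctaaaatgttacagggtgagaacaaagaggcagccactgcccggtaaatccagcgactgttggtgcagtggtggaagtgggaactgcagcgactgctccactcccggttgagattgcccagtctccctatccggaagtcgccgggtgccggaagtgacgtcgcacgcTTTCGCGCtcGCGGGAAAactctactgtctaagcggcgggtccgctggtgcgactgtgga
Hmmr and Cenpa each hold 1 CHR match close to the start and no E2F match, and Rfc3 holds 2 E2F matches, TTTCGCGC and, read on the other strand, TTTCCCGC, and no CHR match. A match is a description of the letters and shows no binding.

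**Figure D3:**
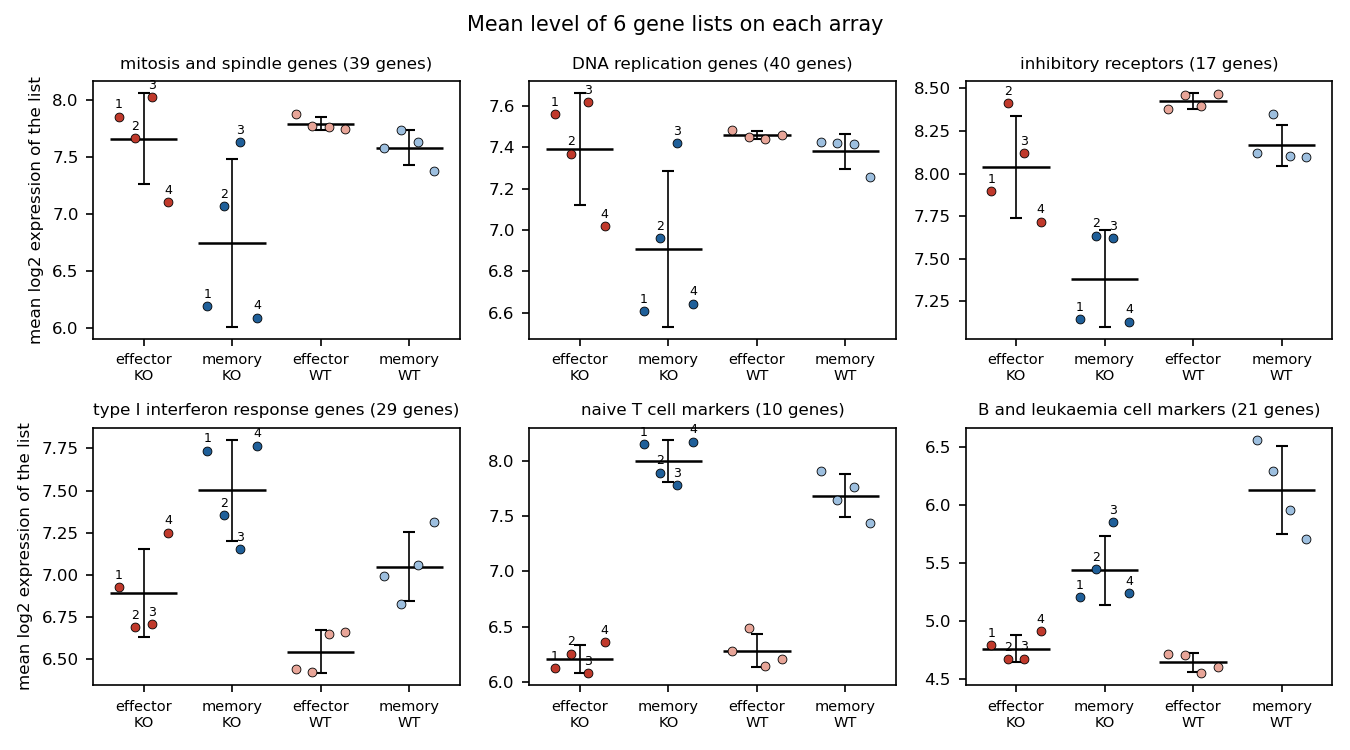
Mean log2 expression of 6 gene lists on each of the 16 arrays (points, numbered by replicate in the KO groups), with the group mean (line) and SD (bar, n = 4). Memory KO arrays 1 and 4 lay below arrays 2 and 3 for division genes and inhibitory receptors and above them for interferon genes and naive T cell markers; effector KO array 4 was lowest of its group for division genes and inhibitory receptors and highest for the other 3 lists.

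Interferon response genes that passed were all lower in effector cells. Of 29 type I interferon response genes 9 were lower and 0 higher, with a median difference of -0.65. That count of 9 was 6 without effector KO array 3 or memory KO array 4 and 12 without effector KO array 4. With the 8 arrays alone it was 6. Of 13 interferon-inducible GTPases 5 were lower and 0 higher. Iigp1, a GTPase that attacks vacuoles of intracellular parasites, read 6.59, 5.98, 5.97 and 6.23 in effector and 9.04, 8.0, 8.76 and 9.24 in memory cells, 5.92-fold lower (log2 difference -2.57 ± 0.24, SE; adjusted p = 1.85e-05). Igtp and Irgm2, of the same family, were 2.86-fold and 2.28-fold lower (adjusted p = 0.000246 and 0.000289), and Irgm1, which regulates the others, 2-fold (adjusted p = 0.000962). All 4 were lower on every effector array, and the 5 GTPases were called in each of the 16 fits that left out 1 array. Without memory KO array 1 or 4, 1 GTPase was higher.

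Oasl2, of the family that senses double-stranded RNA, read 5.81, 4.80, 5.27 and 6.82 in effector and 8.11, 7.13, 7.49 and 8.43 in memory cells, 4.33-fold lower (adjusted p = 0.00176). Effector array 4 and memory arrays 1 and 4 read highest within their groups, the arrays on which the division genes read lowest. Usp18, which removes ISG15 and dampens the receptor, was 2.76-fold lower (adjusted p = 0.00112), and Cmpk2, a mitochondrial nucleotide kinase, 3.07-fold (adjusted p = 0.00106). The list did not move as a whole, since Rsad2, which encodes the antiviral protein viperin, did not pass (log2 difference -0.82, adjusted p = 0.0758) and neither did Ifit1 (-0.66, 0.247) or Irf7 (-0.36, 0.519).

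The interferon-stimulated response element, searched as GAAA, any 2 bases and GAAA on both strands, was matched in 13 of 21 type I interferon genes with a window (61.9%), in 6 of 6 GTPases and in 3.99% of all genes. The windows of Igtp, Irgm2 and Bst2 are shown with the matches in capitals, again as the called genes with a match that had the smallest p. Bst2, which encodes the viral tether tetherin, was named for its window after its values were seen (1.56-fold lower, adjusted p = 0.00262).
Igtp, chr11:58199306-58199605, plus strand: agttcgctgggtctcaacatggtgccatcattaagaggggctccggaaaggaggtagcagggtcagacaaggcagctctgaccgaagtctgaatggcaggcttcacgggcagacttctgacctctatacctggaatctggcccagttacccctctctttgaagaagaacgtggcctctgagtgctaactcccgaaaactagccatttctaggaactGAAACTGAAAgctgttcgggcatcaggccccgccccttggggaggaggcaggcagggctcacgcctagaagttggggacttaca
Irgm2, chr11:58214727-58215026, plus strand: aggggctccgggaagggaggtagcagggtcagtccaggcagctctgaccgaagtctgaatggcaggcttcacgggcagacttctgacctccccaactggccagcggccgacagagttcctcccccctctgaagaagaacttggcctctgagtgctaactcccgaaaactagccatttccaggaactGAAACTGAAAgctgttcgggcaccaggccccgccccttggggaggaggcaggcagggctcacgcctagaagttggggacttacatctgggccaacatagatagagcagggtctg
Bst2, chr8:71537423-71537722, minus strand: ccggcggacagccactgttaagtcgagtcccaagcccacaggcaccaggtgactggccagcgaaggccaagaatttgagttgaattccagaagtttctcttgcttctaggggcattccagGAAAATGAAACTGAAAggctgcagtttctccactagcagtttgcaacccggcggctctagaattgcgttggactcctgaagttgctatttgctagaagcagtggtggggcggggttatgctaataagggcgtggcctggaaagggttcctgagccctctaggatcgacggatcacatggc
Igtp and Irgm2, related genes on chromosome 11, hold the same element, GAAACTGAAA, and Bst2 holds 2 overlapping matches.

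Ribosomal protein genes that passed were all lower in effector cells, by small amounts. Of 53 measured 16 were lower and 0 higher, with 46 negative differences and a median of -0.24. The count was 7 with the 8 arrays alone and 25 with eBayes' trend and robust settings. Rps19 read 10.49, 10.54, 10.51 and 10.46 in effector and 11.10, 11.0, 11.21 and 11.33 in memory cells, 1.58-fold lower (adjusted p = 0.000302), and Rpl13 was 1.4-fold lower (adjusted p = 0.000966); for both, the spread within a group was a fraction of the gap between groups. The respiratory chain, with 2 higher and 2 lower of 58 genes, stood near the share of all genes (0 to 2 higher and 1 to 2 lower in the 16 fits without 1 array).

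In glucose use, 1 of 21 glycolysis genes was higher and 2 were lower (14.3%, against 7.43% of all genes). Of these genes 13 had a positive and 8 a negative difference. Pdk1, a pyruvate dehydrogenase kinase, was 2.33-fold lower (adjusted p = 0.00137) and the lactate transporter gene Slc16a1 2.12-fold lower (adjusted p = 0.00735). The lactate dehydrogenase gene Ldha was 1.31-fold higher (adjusted p = 0.0317), a call lost in 5 of the 16 fits without 1 array. In fatty acid synthesis Fasn was 1.43-fold and Acaca 1.41-fold lower (adjusted p = 0.00298 and 0.00653). They were the 2 that passed of 22 sterol and fatty acid desaturation genes (9.09%, against 7.43% of all genes). That list had 13 positive and 9 negative differences and a median of 0.02. With the 8 arrays alone the Acaca call was lost (adjusted p = 0.0777). Nampt, which recycles nicotinamide into NAD, read 4.58, 4.76, 4.79 and 3.61 in effector and 5.48, 5.87, 5.35 and 5.87 in memory cells, 2.31-fold lower (adjusted p = 0.00204).

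Among lists tied to IL4I1 substrates and products, 0.0% of AHR genes, 3.57% of ATF4 response genes and 16.7% of amino acid transporters passed. Over all genes the share was 7.43%. Of 15 AHR genes 0 were higher and 0 lower, and 8 of them exceeded the median on fewer than 8 arrays. Without effector KO array 4, the array that stood apart, 1 AHR gene was higher and 2 were lower; array weights gave 1 and 1. Of 28 genes of the ATF4 response to amino acid shortage 1 was lower and 0 higher, and the median was 0.01; the lower count was 0 to 1 in the 16 fits without 1 array. Of 18 amino acid transporters 2 were higher and 1 lower, with 0 to 2 and 1 to 2 in those fits. With the mean of probe sets, and also with the 8 arrays alone, 1 transporter was higher and 0 were lower. The lysosomal transporter gene Slc36a4 was 1.42-fold lower (adjusted p = 0.00771), but with the mean of its probe sets in place of the brightest its difference was 0.13 and did not pass. The glutamine transporter gene Slc1a5 was 1.24-fold higher (adjusted p = 0.0389), a call lost in 11 of the 16 fits and with the mean of its probe sets (adjusted p = 0.39). Purinergic genes were lower for 4 of 11, with Entpd1 the 1 that was higher. Besides Nt5e they included Ada, which inactivates adenosine (2.06-fold, adjusted p = 0.00284), and the ATP-gated channel P2rx4 (1.77-fold, adjusted p = 0.0088).

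Among markers of other cells, those of B and leukaemia cells that passed were all higher in the memory samples. Of 21 markers of B and leukaemia cells 7 were lower and 0 higher in effector cells, 19 of 21 differences were negative and the median was -0.82. The mean level of that list was 4.67 to 4.92 in effector KO and 5.21 to 5.86 in memory KO. In WT chimeras 17 of 21 were lower, the median was -1.54, and the list mean was 4.55 to 4.72 in effector and 5.71 to 6.57 in memory cells. Ighm, the immunoglobulin mu chain, read 9.87, 9.12, 9.19 and 10.04 in effector and 11.34, 11.10, 11.42 and 11.48 in memory cells, 3.43-fold lower (adjusted p = 0.000127). The class II genes H2-Aa (2.16-fold, adjusted p = 0.00176) and H2-Ab1 (1.97-fold, adjusted p = 0.00139) and the B cell receptor gene Cd79b (2.14-fold, adjusted p = 0.011) were lower too. Ms4a1, which encodes CD20, read 3.24 to 3.90 in effector and 3.98 to 4.56 in memory cells and missed the threshold (adjusted p = 0.108); it exceeded the array median on 6 of 16 arrays.

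Of 27 myeloid markers 4 were lower and 1 higher. Csf1r, the receptor of CSF1, was 2.05-fold lower (adjusted p = 0.00557), and the lysozyme gene Lyz2 read 4.72 to 5.62 in effector and 5.05 to 6.83 in memory cells without passing (adjusted p = 0.0721). The count of 4 was 1 without effector KO array 1 or 3 or memory KO array 2 or 3 and 2 without effector WT array 1, and no marker was higher without effector KO array 1 or 3 or memory KO array 1 or 4. Of 13 NK cell markers 4 were lower and 1, Eomes, was higher, with 2 higher without effector KO array 1. Fcer1g and Tyrobp, adaptors of NK and myeloid receptors, were 3.13-fold and 2-fold lower (adjusted p = 9.99e-06 and 0.0129), while the NK receptor gene Ncr1 exceeded the median on 3 of 16 arrays. Il4ra, Tlr7, Btla, St6gal1 and Ptpn6, which B or myeloid cells are known to express as well, were lower in effector cells too. Within memory KO each of these 5 genes read highest on array 1 or 4 and lowest on array 2 or 3. The mean of the B cell list was 5.21, 5.45, 5.86 and 5.24 there, lowest on arrays 1 and 4. Its members differed, as Ighm read highest on array 4 and lowest on array 2. H2-Aa, H2-Ab1 and Cd79b read lowest on array 1. The mean of the myeloid list was 4.73, 5.08, 4.80 and 4.49. Whether B or myeloid cells contributed to the falls of the 5 genes was not tested.

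Of 10 naive T cell markers 8 were lower and 0 higher, and 8 were lower in every fit that left out 1 array. Ccr7, Lef1, Satb1 and Bach2 are among them and were counted above. Dapl1, a gene of naive and early memory cells, read 5.54, 4.97, 5.17 and 6.18 in effector and 9.54, 9.04, 8.98 and 9.51 in memory cells, 13.9-fold lower (log2 difference -3.80 ± 0.23, SE; adjusted p = 1.35e-07), with a gap of more than 2 units between the groups. Treml2 was 9.96-fold lower (adjusted p = 1.96e-05) and the actin crosslinker gene Actn1 3.98-fold (adjusted p = 0.00452). The mean of the list was 6.08 to 6.36 in effector KO and 7.78 to 8.17 in memory KO. Of 15 markers of CD4 and regulatory T cells 1 was higher, Ctla4, and 0 lower, with 2 higher and 1 lower without effector KO array 4 and 1 lower without effector KO array 2. Of 12 erythroid and platelet markers and of 6 markers of gamma delta and innate-like T cells none passed in this limma fit.

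In WT chimeras the same comparison called 204 genes higher (0.92%) and 511 lower (2.3%). Which genotype had more calls depended on the fit. With each genotype's 8 arrays alone the counts were 546 and 774 in WT against 183 and 417 in KO chimeras, and array weights gave 643 and 1001 in WT against 929 and 971 in KO chimeras. Of the 1649 genes called in KO chimeras 481 (29.2%) were called in the same direction in WT chimeras, which is 67.3% of the 715 genes called there (3.22% of all genes), and 0 were called in opposite directions. Among genes higher in KO chimeras the median difference was 0.64 there and 0.34 in WT chimeras, and among genes lower in KO chimeras it was -0.70 and -0.44. Among the genes chosen by WT calls the medians were 0.60 in KO and 0.61 in WT chimeras for the higher and -0.75 and -0.87 for the lower ones. A choice by the calls of 1 genotype raises that genotype's values, so neither pair of medians compares the genotypes.

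**Figure D4:**
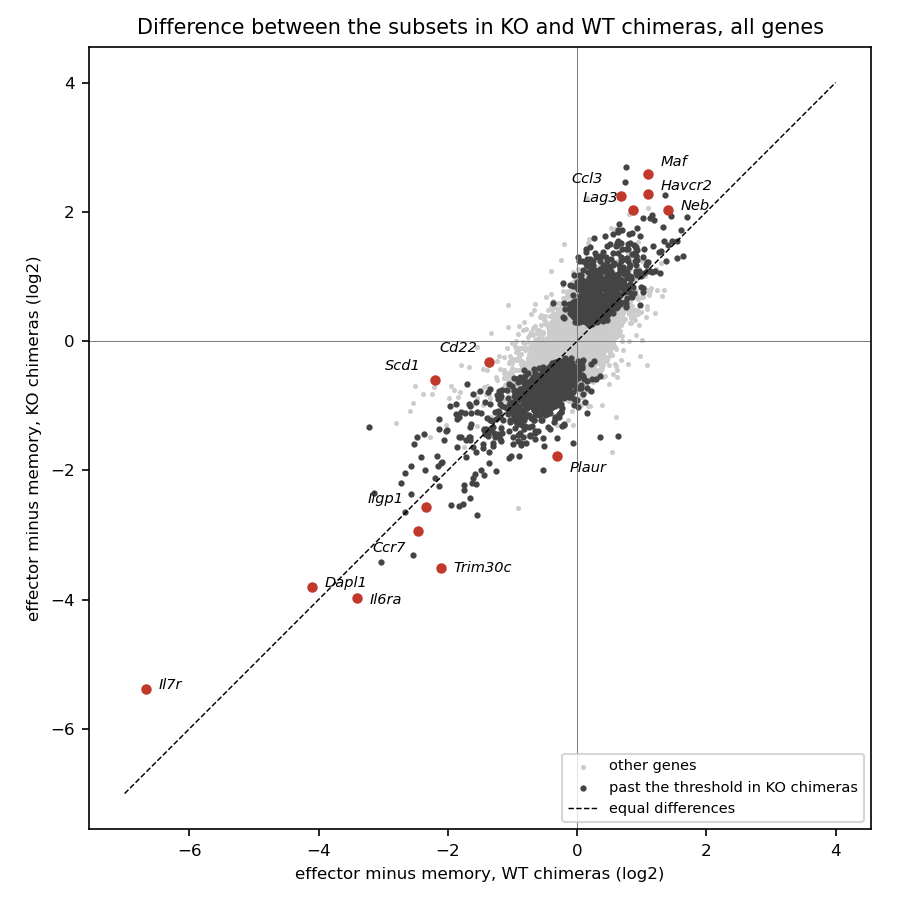
Log2 difference of effector minus memory cells for 22180 genes in WT chimeras (x axis) and KO chimeras (y axis). Dark points passed the threshold in KO chimeras, red points are labelled genes, and the dashed line marks equal differences; Il6ra, Dapl1 and Ccr7 lie near the line, and Maf, Ccl3, Lag3 and Plaur farther from 0 in KO chimeras.

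In the 16-array fit 6 and 6 stem-like factors and 8 and 7 naive T cell markers were lower in KO and WT chimeras. Higher genes numbered 8 and 2 for inhibitory receptors, 10 and 3 for exhaustion factors and 9 and 2 for granule genes. With the 8 KO arrays alone these 3 lists had 3 higher genes each, and WT list counts from such a fit are not given here. The log2 difference was -3.97 in KO and -3.40 in WT chimeras for Il6ra, -2.94 and -2.46 for Ccr7, -3.80 and -4.09 for Dapl1, -1.25 and -1.04 for Lef1 and -2.64 and -2.67 for Tnfsf8, with adjusted p under the threshold in each. Among genes of the memory side, Btla (-0.94 and -0.59, adjusted p = 0.0777 in WT) and Actn1 (-1.99 and -0.52, 0.635) passed in KO and not in WT chimeras. Of the effector side, Cd101 (1.09 and 0.96), Fasl (1.14 and 0.70), Il10 (1.76 and 1.32) and Ccl4 (1.48 and 0.62) passed in both, and others passed in KO and not in WT chimeras. Lag3 differed by 2.03 in KO and by 0.87 in WT chimeras (adjusted p = 0.122 in WT), Ccl3 by 2.25 and 0.68 (0.428), Ifng by 1.72 and 0.69 (0.15), and Gzmb by 1.13 and 0.50 (0.147). For the mitosis genes, 0 of 39 passed in WT chimeras and the median difference was 0.21.

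In the limma test of the interaction of subset and genotype, which asks whether these differences themselves differed, 0 of 22180 genes (0.0%) passed after adjustment (lowest adjusted p = 0.300), and 1296 (5.84%) had an unadjusted p under 0.05. Without array 3 of memory KO 5 genes passed, all with a higher difference in KO chimeras. By p, the first 5 genes with the higher difference in KO chimeras were Zfp41, Scd1, Ccl4, Cd22 and Ap1s1, and the first 5 with the lower difference were Ankmy2, Dact2, Plaur, Irgc1 and Gys1. Ankmy2 had the smallest p (1.84e-05, adjusted 0.3): its means were 7.11 in effector KO, 7.84 in memory KO, 7.57 in effector WT and 7.53 in memory WT.

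Plaur, the urokinase receptor of activated leukocytes, read 4.38, 4.61, 4.60 and 4.62 in effector KO and 6.65, 6.17, 6.44 and 6.04 in memory KO, 3.42-fold lower (adjusted p = 0.000151), against means of 4.44 and 4.75 in WT chimeras; the interaction was -1.46 ± 0.31 (SE, adjusted p = 0.62). For Ccl4 the interaction was 0.86 ± 0.19 (adjusted p = 0.62), with means of 9.03 and 7.55 in KO and 8.97 and 8.36 in WT chimeras, with close effector means and memory means further apart. Scd1, a fatty acid desaturase, fell in WT (-2.20, adjusted p = 6.2e-05) and read 2.44 to 2.99 in effector and 2.85 to 4.05 in memory KO cells (adjusted p = 0.137); it exceeded the median on 3 of 16 arrays. The B cell marker gene Cd22 likewise fell in WT (-1.36, adjusted p = 0.000141) and not by the threshold in KO chimeras (-0.33, adjusted p = 0.267). Its list, the B and leukaemia markers, had 17 lower markers in WT and 7 in KO chimeras. Of the 10 genes, 4 (Cd22, Plaur, Irgc1 and Gys1) lie on chromosome 7, which also holds Il4i1 and 8.78% of the genes tested; this was noticed after the values were seen and was not tested.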

How the data were processed

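RNA of CD8 T cells sorted from spleen was hybridised to 16 Affymetrix 1-colour arrays. Per the labels' protocols, RNA was extracted with the RNeasy Micro Kit and 1 ng was labelled with the GeneChip WT Pico kit. The authors deposited normalized values, read here as log2 expression because of their range (0.7365 to 14.0453); neither log base nor normalization method is given in the sources used here. The number of arrays limits the precision. Of 41345 probe sets, 23521 with 1 gene symbol in the platform annotation were used, and the brightest over all arrays stood for each of 22180 genes.

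limma 3.58.1 in R 4.3.3 (lmFit, contrasts.fit, eBayes) fitted 4 group means to all 16 arrays, with 12 residual degrees of freedom. The contrasts were effector minus memory in KO, the same in WT, and their difference, each adjusted by Benjamini-Hochberg at 0.05; the fit was tested on simulated data. Folds are 2 to the power of the log2 difference. Named genes were the 15 largest rises and falls that passed without overlap, the 5 smallest p in each direction of the interaction, core members and up to 3 further members of each list, and the label checks; predicted, RIKEN and segment genes were not named. Lists were described by counts and medians and not tested. The comparison, its members and the lists were chosen with earlier results of these data known. Alternatives were a replicate block, single arrays left out, quantile normalization, median centring, a filter on dim genes, the mean of probe sets, array weights, the 8 arrays alone and eBayes with trend and robust. Promoter sequences were RefSeq's, on GRCm38.p6.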

Additional observations from a re-analysis of the deposited data

Results flagged for a closer look

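Within the KO groups, 292 sets of 4 values of the genes named above were examined for 1 array far from the other 3 of its group, and 11 were; chance alone gives about 1 in 20. Array 4 of effector KO held 6 of them. It read lowest for Cd3e (11.64, others 11.86 to 11.90), Itga6 (5.71, others 6.51 to 6.62), Med7 (7.67, others 8.94 to 9.07), Slc16a1 (4.53, others 5.50 to 5.67) and Tyrobp (5.43, others 6.20 to 6.29), and highest for Rsad2 (6.38, others 5.87 to 5.94). Array 1 of effector KO read lowest for Plaur (4.38, others 4.60 to 4.62). In memory KO, array 1 read lowest for Cd79b (5.6, others 6.29 to 6.39) and highest for Il12rb1 (7.55, others 7.27 to 7.28), array 3 read highest for Il10 (5.49, others 4.36 to 4.55), and array 4 read lowest for Il12rb2 (5.45, others 6.15 to 6.29). Cd3e and Rsad2 did not pass the threshold, and the calls of the other 9 genes held in every fit without 1 array.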

How the results depend on the processing

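Of 132 named genes called in KO chimeras, 111 stayed called in each of the 16 fits without 1 array and 93 in each of the other 8 settings. With single arrays left out, genes higher in effector KO numbered 358 to 992 and lower ones 603 to 1052, both lowest without array 4 of memory KO; the interaction gave 0 to 5 genes higher. In WT chimeras the counts without single arrays were 63 to 350 and 296 to 687. The 8 arrays of a comparison alone gave 183 higher and 417 lower in KO and 546 and 774 in WT chimeras. In KO chimeras that fit gave 1 lower effector fate factor, 1 lower resident memory gene, 3 lower integrins, 1 higher cytokine receptor, 1 higher and 2 lower costimulatory genes, 2 higher T cell receptor signalling genes, 0 higher and 1 lower immediate early genes, 2 higher NF-kB genes and 1 lower myeloid marker. Array weights gave 643 and 1001 in WT chimeras. Centring each array on its median gave 853 higher and 784 lower in KO chimeras. Slc36a4 turned sign with the mean of its probe sets (0.13); the cause was not tested.

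The replicate block of genotype and number gave 827 higher and 997 lower in KO chimeras, and 35 higher mitosis genes, 3 higher NF-kB genes, 6 lower resident memory genes and 1 higher AHR gene. Same-numbered arrays of a genotype deviated together with correlations of 0.0178 to 0.239, under 0.1 in a pair of each genotype. Effector KO array 1 correlated best with memory KO array 3. Every other effector array correlated best with the memory array of its own number. The labels do not say whether equal numbers mark 1 animal, and the main fit did not use them as pairs. No background level came with the values.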
